A study of Mus musculus with 4 samples.

Results

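The receptors described here place lymphocytes and dendritic cells (DCs) in the intestine or keep them there. They are 9 genes chosen by symbol, Itgae, Itgb7, Itga4, Ccr9, Ccr10, Gpr15, S1pr1, Cd69 and Klf2, and all 9 were found among the 32285 genes counted. Each was read as CPM, its transcript molecules per 1000000 molecules summed over a cell class, and as the share of cells with at least 1 molecule, in 16 lymphocyte and DC classes of each sample.

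Leukocytes reach the gut wall when the integrin α4β7, made from Itga4 and Itgb7, binds MAdCAM-1 on mucosal vessels and when chemokine receptors read local signals: CCR9 reads CCL25, CCR10 reads CCL28, and GPR15 directs T cells to the colon. Inside the tissue the αE chain encoded by Itgae pairs with β7 and binds E-cadherin of the epithelium. Exit follows sphingosine-1-phosphate through S1PR1, whose gene is driven by the transcription factor KLF2, while CD69 removes S1PR1 from the cell surface.

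The study isolated CD45+ leukocytes from inflamed colonic lamina propria by bead selection and sequenced RNA of single cells in 4 samples. All 4 samples came from mice given 2% dextran sulfate sodium (DSS, a polymer that injures the colonic epithelium) for 7 days, with tissue taken on day 8 and 3 mice mixed per sample. The labels give an age of 10 weeks and the methods 8 weeks. The series compares wild type with AhR-deficient mice, but the labels do not give the genotype of a sample, so no genotypes were compared and each sample stands on its own. Each molecule carries a unique molecular identifier (UMI).

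Samples 1 to 4 held 8493 to 13730 deposited cells, and 43432 of 45229 passed a minimum of 200 genes and a limit of 20% mitochondrial UMIs. Their median depth was 6091 to 7464 UMIs. Marker genes that are no members placed 6851 cells in the 16 classes, and cells with markers of more than 1 lineage were left out. Of the gated cells, 97.1% lay in a cluster whose gated cells were mostly of the same lineage, with T cells and ILCs taken as a single lineage. The gate markers were not left out of the clustering, so this is no independent check of the gates. Some markers that no gate used went with the labels of CD4 T cells. Tcf7, a transcription factor of naive T cells, had a median of 482 CPM in naive-like CD4 T cells and 210 CPM in the other Foxp3-negative CD4 T cells, and Ikzf2 was highest among CD4 T cells in the Foxp3-positive ones, at 1503 CPM. Ctla4 in naive-like CD4 T cells reached 1155 CPM in 1 sample, within the 1018 to 1352 CPM of the other CD4 T cells, and Il7r did not separate the CD4 classes, with medians of 222 to 268 CPM. The classes held 31 (ILC3) to 3185 (Ighd-positive B) cells over the 4 samples, and values were read where a sample held at least 10 cells of a class. This left ILC3 cells in 2 samples, plasmacytoid DCs (pDCs) in 3, and germinal-centre-like B cells in sample 2 alone.

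Intervals are 95% exact intervals and cover counting error only. Shares after thinning are from cells drawn down to 1000 UMIs each, without the 1 to 7 gated cells per sample that were shallower. Neutrophils and monocyte-macrophages, gated in the same way, show how much of a transcript is found outside lymphocytes, from free RNA or from their own expression.

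**Figure D1:**
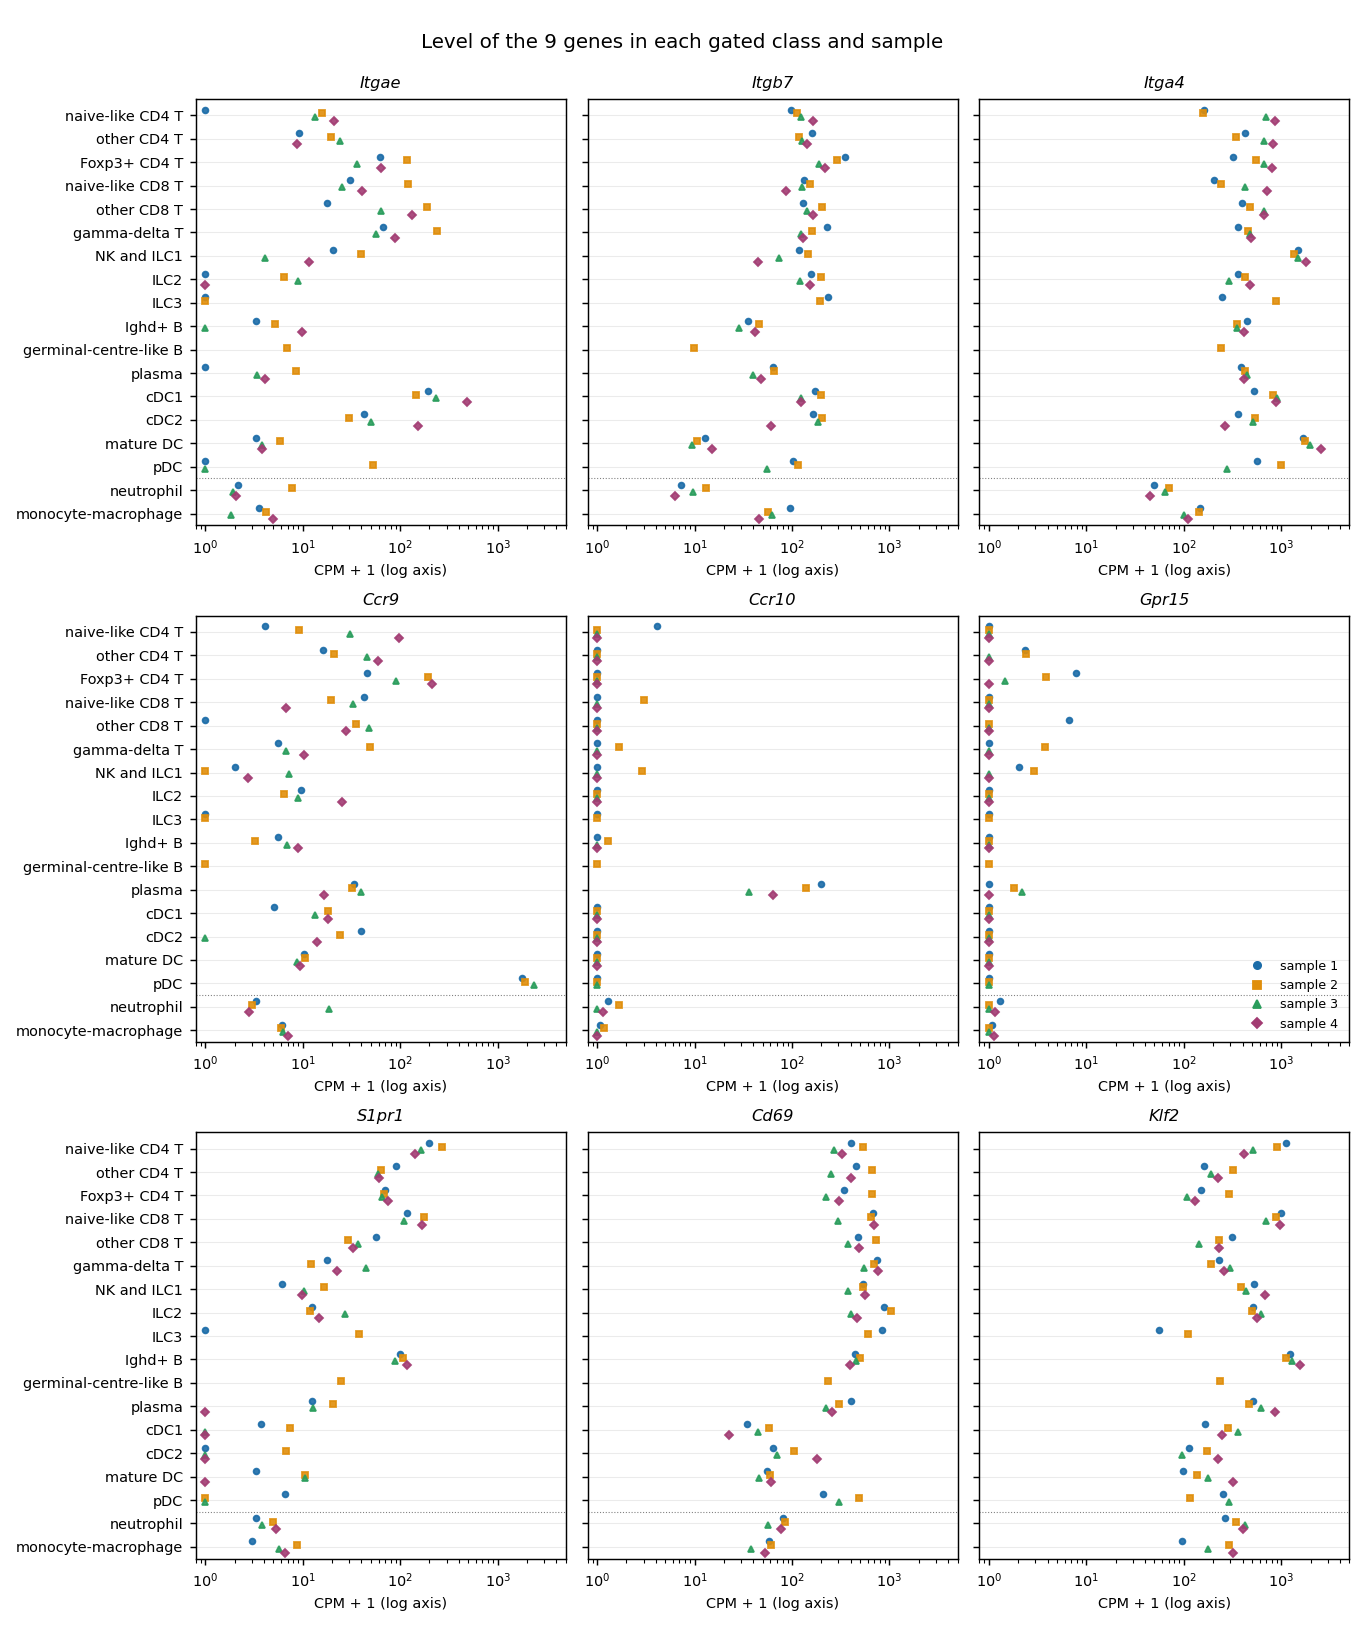
Level of each gene (CPM + 1, log axis) in the 16 gated classes and, under the dotted line, in neutrophils and monocyte-macrophages, with 1 point per sample that had at least 10 cells of the class. Ccr10 stood above 35 CPM in plasma cells of every sample and at 0 to 3.11 CPM in every other class, and Ccr9 reached 1765 to 2348 CPM in pDCs.

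The integrin chains came first. Itga4 lies at chr2:79255426-79333123 on the plus strand and Itgb7 at chr15:102215995-102231944 on the minus strand (GRCm38). Both chains of α4β7 had UMIs in every lymphocyte class, so the bases before their RefSeq starts are shown, from RefSeq on GRCm38.p6, as the reference sequence of this pair. Capitals mark CACCC on either strand, the core of the KLF box, and the windows are chr2:79255176-79255425 (plus strand) and chr15:102231936-102232185 (minus strand), written 5′ to 3′. The Itgb7 window runs a few bases into the gene as its position is given above.
Itga4: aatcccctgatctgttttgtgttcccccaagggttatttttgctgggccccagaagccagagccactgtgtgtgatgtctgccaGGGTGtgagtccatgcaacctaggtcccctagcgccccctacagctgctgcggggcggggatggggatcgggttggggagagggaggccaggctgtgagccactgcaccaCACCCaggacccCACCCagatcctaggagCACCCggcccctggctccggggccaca
Itgb7: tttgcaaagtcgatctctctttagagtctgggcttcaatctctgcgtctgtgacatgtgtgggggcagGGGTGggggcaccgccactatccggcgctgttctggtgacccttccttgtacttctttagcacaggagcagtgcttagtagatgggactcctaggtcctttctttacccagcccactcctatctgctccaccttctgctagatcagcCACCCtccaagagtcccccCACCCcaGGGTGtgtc
Each window of 250 bases held 4 matches, and those of Ccr9, Gpr15 and Klf2, the other members with an entry, held 1 each. These windows are also set by RefSeq starts. The window of Ccr9 lies inside the gene position given below, and those of Gpr15 and Klf2 lie partly inside theirs. Of 32851 promoter windows of that length, 52.0% held at least 1 match and 2.14% at least 4. GCGTG, the core of the element that AhR binds, had no match on either strand in the windows of the 5 members that the promoter table holds, and 28.2% of all windows had 1 or more. These are counts of letters, not of bound sites.

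Itga4, the α4 chain, was highest in mature DCs, the Ccr7-positive DCs that carry antigen to lymph nodes. Its level there was 1679, 1767, 1988 and 2571 CPM in samples 1 to 4, and 98.0% to 100% of the cells had a UMI. NK cells with ILC1 were next, at 1482, 1350, 1492 and 1803 CPM. Mature DCs stood above them in each sample, with intervals apart in samples 2 to 4 but not in sample 1. Every other class had a median of 850 CPM or less. Monocyte-macrophages had 98.7 to 145 CPM and neutrophils 44.1 to 70.2 CPM.

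Within CD4 T cells the level of Itga4 differed between samples. Naive-like cells, gated by markers of naive T cells, had 158, 158, 689 and 860 CPM in samples 1 to 4. The other Foxp3-negative CD4 T cells had 421, 343, 670 and 825 CPM. The ratio was 0.376 (0.298 to 0.472) in sample 1 and 0.460 (0.359 to 0.585) in sample 2, and 1.03 (0.917 to 1.15) in sample 3 and 1.04 (0.929 to 1.17) in sample 4. The naive-like cells of samples 3 and 4 also had more UMIs, with medians of 9288 and 9426 against 6087 and 5174 in samples 1 and 2, and the part of depth was not tested.

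Itgb7, the β7 chain shared by α4β7 and αEβ7, was highest in Foxp3-positive CD4 T cells, the regulatory T cells, in every sample, although its interval overlapped that of the next class each time. They had 350, 286, 190 and 217 CPM. The ratio to the other non-naive CD4 T cells was 2.22, 2.42, 1.49 and 1.51, and all 4 intervals lay above 1. Over the 9 classes of T cells, NK cells and ILCs the medians of Itgb7 ran from 94.3 to 251 CPM. B-lineage classes were lower, at 27.5 to 44.5 CPM in Ighd-positive B cells and 39.1 to 63.7 CPM in plasma cells. Monocyte-macrophages had 45.4 to 94.4 CPM, which overlaps the plasma cells and lies above the Ighd-positive B cells.

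Mature DCs had the α4 chain with little of the β7 chain. Their Itgb7 level was 11.7, 9.68, 8.40 and 14.2 CPM in samples 1 to 4, against 167, 200, 140 and 96.8 CPM in conventional DCs. The highest of the 4 ratios was 0.146 (0.0449 to 0.373), in sample 4. The counts behind the mature DCs were 5, 2, 15 and 5 UMIs. Neutrophils had 5.34 to 12.03 CPM of Itgb7, a range that overlaps the mature DCs.

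Itgae, on chromosome 11 (chr11:73090583-73147446, plus strand), encodes the αE chain, CD103. Type 1 conventional DCs (cDC1), known for this integrin, had 193, 143, 231 and 486 CPM in samples 1 to 4. Type 2 conventional DCs (cDC2) had 41.4, 28.8, 49.7 and 152 CPM. The ratio of cDC1 to cDC2 was 4.65 (2.84 to 8.07), 4.97 (2.54 to 10.8), 4.66 (2.44 to 9.99) and 3.202 (2.03 to 5.26), above 1 in every sample. With at least 2 UMIs asked of the defining markers the median ratio was 11.3 over 3 samples in place of 4.66. A UMI was found in 52.1% to 86.7% of cDC1, and in 10.4% to 40% after thinning each cell to 1000 UMIs. Neutrophils had a UMI in 0.445% to 1.28% of cells, at median depths of 3451 to 6218 UMIs, and monocyte-macrophages in 0.535% to 1.69%, at 5819 to 8856 UMIs. The cDC1 were deeper, at 11498 to 16182 UMIs. Of genes with at least 20 CPM in either class in each sample, 5.28% differed at least 2-fold the same way in all 4 samples, and of the 5 members that passed this minimum, Itgae alone did. Members reach the minimum through the class where they are high, here and in the comparisons that follow.

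Mature DCs had almost no Itgae, at 2.34, 4.84, 2.80 and 2.83 CPM, from 1, 1, 5 and 1 UMIs, where conventional DCs had 137, 94.4, 178 and 353 CPM. In this comparison 17.0% of genes differed at least 2-fold the same way, and 3 of 5 members did: Itga4 was higher in mature DCs, and Itgae and Itgb7 were lower. The ratio for Itga4 was 3.60, 2.53, 2.52 and 4.03. Ccr7 is part of the gate of mature DCs, and of the other integrins on the list fixed for this report, Itgb2 and Itgax, both chains of DC and leukocyte integrins, were lower in mature DCs.

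By median over the samples, the T cells with the most Itgae were CD8 T cells that were not naive-like and γδ T cells, classes to which most intraepithelial lymphocytes belong. The CD8 T cells had 16.8, 187, 62.0 and 132 CPM in samples 1 to 4, and sample 1 rests on 3 UMIs in 24 cells. The γδ T cells had 66.4, 238, 55.1 and 87.1 CPM. Sample 2 was the highest in both classes, and there γδ T cells, not cDC1, were the class with the highest level of all. Naive-like and other CD8 T cells pooled exceeded the other non-naive CD4 T cells 3.12-fold (1.15 to 9.83), 8.81-fold (5.05 to 16.8), 2.20-fold (1.38 to 3.54) and 15.2-fold (7.99 to 32.5). In this comparison 2.0% of genes differed at least 2-fold the same way, and Itgae was the 1 member of 7 to do so.

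Foxp3-positive CD4 T cells also held more Itgae than the other non-naive CD4 T cells, at 61.7, 116, 35.3 and 62.6 CPM against 8.23, 18.5, 23.04 and 7.66 CPM. The ratio was 7.50, 6.28, 1.53 and 8.17, and its interval in sample 3 ran from 1.01 to 2.38. Itgae therefore missed the 2-fold mark in sample 3. Of all genes, 1.9% passed that mark the same way in all 4 samples, and of 7 members tested only Ccr9 did.

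Ccr9, the receptor for the small intestinal chemokine CCL25, lies at chr9:123678439-123784330 on the plus strand. Its highest level was in pDCs, which make type I interferon and are known to carry this receptor. They had 1765 (1575 to 1971), 1910 (1616 to 2242) and 2348 (2009 to 2728) CPM in samples 1 to 3, from 20, 11 and 10 cells. Conventional DCs of the same samples had 17.0, 19.6 and 8.75 CPM. The ratios were 104 (66.1 to 172), 97.4 (58.0 to 175) and 268 (121 to 741). In this comparison 18.7% of genes differed at least 2-fold the same way in the 3 samples, and of 6 members Ccr9 and Cd69 did, both higher in pDCs. Cd69 in pDCs was at 207, 487 and 302 CPM, against 44.2, 77.3 and 51.1 CPM in conventional DCs.

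In Foxp3-positive CD4 T cells Ccr9 was second to the pDCs in samples 1 to 3, and was the highest class read in sample 4. The level was 44.6, 193, 89.8 and 212 CPM, and a UMI was found in 16.3%, 31.7%, 33.1% and 46.1% of the cells. Thinned to 1000 UMIs per cell, the shares were 0%, 12.2%, 7.43% and 10.4%. The other non-naive CD4 T cells had 15.1, 19.9, 44.7 and 59.0 CPM. All 4 ratios, 2.95, 9.68, 2.01 and 3.60, had intervals above 1. Ccr2, a receptor for inflammatory chemokines, and the integrin chain Itgb8, which serves in TGF-β activation, were also past 2-fold higher in these cells in every sample, and Itga1, a collagen receptor chain of resident T cells, was lower.

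Naive-like CD4 T cells of sample 4 had 96.5 CPM of Ccr9 and γδ T cells of sample 2 had 48.4 CPM. Plasma cells had 32.5, 31.0, 39.1 and 15.6 CPM, and Ighd-positive B cells 4.53, 2.24, 5.90 and 7.95 CPM. Monocyte-macrophages had 4.95 to 6.06 CPM, which overlaps the B cells. Neutrophils had 1.83 to 2.30 CPM in samples 1, 2 and 4 and 17.5 CPM in sample 3, where 131 UMIs lay in 13 of 1573 cells. Whether those 13 barcodes held a second cell was not tested.

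Ccr10, on chromosome 11 (chr11:101172997-101175443, minus strand), encodes the receptor for the epithelial chemokine CCL28 and is known in IgA plasma cells. Plasma cells had 200 (160 to 246), 137 (122 to 152), 35.5 (24.0 to 50.7) and 62.4 (38.1 to 96.3) CPM in samples 1 to 4. A UMI was found in 79.0%, 52.8%, 35.4% and 50% of the cells, and in 21.1%, 10.6%, 2.08% and 0% after thinning to 1000 UMIs. The levels of samples 1 and 2 were above those of samples 3 and 4, with no overlap of the intervals. These cover counting error only, from 19, 161, 48 and 18 plasma cells. How many other genes divide the samples in this way was not counted. At most 0.255% of neutrophils and 0.106% of monocyte-macrophages had a UMI. Ighd-positive B cells had no UMI in samples 1, 3 and 4 and 2 UMIs in sample 2. With 3 UMIs per library as the floor in place of 0, the ratio was 866, 12.1 and 23.6 in samples 1, 3 and 4. The lower limits of the exact intervals were smaller, at 689, 9.22 and 17.4. In sample 2 the ratio was 488 (134 to 4045). The median over the samples, 256, was 23.6 without sample 1 or without sample 2. No class other than plasma cells reached 4 CPM.

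Ccr10 and S1pr1 were the 2 members of 6 that differed at least 2-fold the same way between plasma cells and Ighd-positive B cells in all 4 samples, where 32.5% of genes did. S1pr1 was lower in plasma cells, at 11.6, 19.4, 11.9 and 0 CPM, against 98.1, 107, 88.4 and 116 CPM. No UMI was found in the 18 plasma cells of sample 4, where 3 UMIs would give 9.36 CPM. Immunoglobulin transcripts took 31.0% to 40.8% of the UMIs of plasma cells and 0.324% to 0.542% of those of Ighd-positive B cells. Cxcr5 and Gpr183, receptors that position B cells in lymphoid organs, were lower in plasma cells as well.

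The chains of α4β7 differed less between these classes. Itga4 stood at 385, 426, 448 and 418 CPM in plasma cells and at 441, 351, 353 and 410 CPM in Ighd-positive B cells. The ratio was 0.874, 1.21, 1.27 and 1.02, on both sides of 1. Itgb7 gave 1.82, 1.43, 1.42 and 1.15, with intervals above 1 in samples 1 and 2. With immunoglobulin, mitochondrial and haemoglobin UMIs left out of the totals, the median ratio over the samples was 1.74 in place of 1.12 for Itga4 and 2.17 in place of 1.43 for Itgb7.

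Gpr15, at chr16:58717433-58719070 on the minus strand, was close to undetected. Foxp3-positive CD4 T cells had 4, 1, 1 and 0 UMIs in samples 1 to 4, and the other non-naive CD4 T cells 1, 1, 0 and 0. No other class had more than 4 UMIs over the samples read. Summed over the samples, the ratio of the former to the latter was 2.65 (0.474 to 26.9), so a difference was not detectable at this depth. In sample 4, with no UMI in 115 Foxp3-positive cells, 3 UMIs would give 1.88 CPM, and the upper limit of the exact interval was 2.31 CPM.

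S1pr1 and Klf2 form the exit side. S1pr1 lies at chr3:115710433-115715072 on the minus strand and Klf2 at chr8:72319033-72321656 on the plus strand. S1pr1 was highest in naive-like T cells, CD4 in samples 1 to 3 and CD8 in sample 4, at 196, 271, 162 and 143 CPM in naive-like CD4 T cells and 116, 174, 109 and 166 CPM in naive-like CD8 T cells. Ighd-positive B cells followed, at 98.1, 107, 88.4 and 116 CPM. Every other class had a median of 68.3 CPM or less. A UMI was found in 55.2% to 69.3% of naive-like CD4 T cells and in 17.5% to 24.1% after thinning to 1000 UMIs, against 1.14% to 2.34% of neutrophils and 1.79% to 4.44% of monocyte-macrophages before thinning.

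The other Foxp3-negative CD4 T cells had 89.1, 62.6, 58.7 and 59.7 CPM of S1pr1. The ratio of naive-like to other cells was 2.20 (1.62 to 3.01), 4.33 (3.09 to 6.19), 2.77 (2.05 to 3.73) and 2.39 (1.71 to 3.34). S1pr1 was the 1 member of 5 past 2-fold in all 4 samples, where 0.524% of genes were.

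Klf2 gave ratios of 6.91 (5.68 to 8.47), 2.88 (2.46 to 3.38), 2.69 (2.29 to 3.18) and 1.86 (1.55 to 2.23) in the same comparison. The naive-like cells had 1118, 910, 510 and 416 CPM and the other cells 162, 316, 189 and 224 CPM. These ranges did not overlap, but the share of all genes for which this holds was not counted. Sample 4 fell short of 2-fold, so Klf2 was not counted there.

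In CD8 T cells both genes passed. Klf2 was at 999, 884, 701 and 978 CPM in naive-like cells and at 313, 226, 144 and 230 CPM in the others, with ratios of 3.19, 3.91, 4.88 and 4.25. S1pr1 gave 2.08, 6.14, 2.99 and 5.21. They were 2 of 7 members to do so, where 0.932% of genes did. Of the 10 genes of the residency list 8 were tested and 3 passed: Rgs1, a brake on chemokine receptor signalling, Cxcr6, a receptor of tissue T cells, and Itga1 were lower in the naive-like CD8 T cells in every sample. The other tested genes did not pass, and their levels lay on both sides, such as Nr4a1, an early gene of receptor signalling, at 84.1 to 263 CPM in naive-like and 68.1 to 89.4 CPM in other CD8 T cells.

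Klf2 was highest in Ighd-positive B cells in every sample, although in sample 1 the interval overlapped that of naive-like CD4 T cells, at 1220, 1128, 1299 and 1557 CPM, with 91.0% to 96.5% of cells holding a UMI. Plasma cells had 513, 470, 616 and 858 CPM, a ratio of 0.421, 0.416, 0.474 and 0.551. Immunoglobulin, mitochondrial and haemoglobin UMIs took 33.6% to 43.4% of plasma cell UMIs, against 3.8% to 4.1% in Ighd-positive B cells. Such a share lowers the CPM of all other genes in plasma cells, and the Klf2 ratio without these UMIs was not read. Neutrophils had 263 to 428 CPM and monocyte-macrophages 94.96 to 317 CPM, so for this gene they gave no low reference.

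Germinal-centre-like B cells, gated by markers of germinal centre B cells, were read in sample 2 from 32 cells. S1pr1 was at 23.8 CPM from 8 UMIs and the ratio to Ighd-positive B cells was 0.223 (0.0957 to 0.441). Klf2, Cd69 and Itgb7 were also lower, with ratios of 0.206, 0.464 and 0.201 (0.0411 to 0.592, from 3 UMIs), so that 4 of 5 members passed 2-fold where 31.1% of genes did. S1pr2, the receptor that confines germinal centre B cells, was at 104 CPM against 0.841 CPM. With 1 sample there was no check between samples, and after thinning to 1000 UMIs the ratio of S1pr1 was 0.672 (0.0804 to 2.49).

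Cd69, at chr6:129267325-129275436 on the minus strand, encodes a lectin-like receptor of activated and resident lymphocytes. In the lymphocyte classes, naive-like ones included, it ran from 221 to 1039 CPM. ILC2 were the highest in samples 1 and 2 and γδ T cells in samples 3 and 4, with ranges of 405 to 1039 CPM and 548 to 763 CPM, but only in sample 2 was the interval apart from that of the next class. Conventional DCs were lower, at 21.7 to 57.7 CPM in cDC1 and 62.1 to 178 CPM in cDC2, next to 56.2 to 83.5 CPM in neutrophils.

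Naive-like CD4 T cells had 398, 529, 268 and 328 CPM of Cd69 and the other Foxp3-negative CD4 T cells 454, 660, 249 and 402 CPM. The ratio was 0.876 (0.741 to 1.03), 0.802 (0.693 to 0.926), 1.08 (0.892 to 1.29) and 0.815 (0.679 to 0.973), so the classes did not differ in samples 1 and 3 beyond counting error. Fos, an immediate-early gene that cell handling can induce, was at 506, 491, 288 and 356 CPM in the naive-like cells and at 181, 401, 200 and 376 CPM in the others. ILC2 had the most Fos of the 16 classes in each sample, at 1780, 1670, 1100 and 1375 CPM. The γδ T cells had 353, 417, 519 and 704 CPM of Fos. Jun, Dusp1 and the heat-shock gene Hspa1a were read as well. Dusp1 was also highest in ILC2 in each sample, at 1229, 1077, 1158 and 1322 CPM. Jun was at 1160, 1507, 521 and 499 CPM in ILC2. In samples 3 and 4 plasma cells had more Jun, at 705 and 820 CPM. Hspa1a was at 0, 5.44, 2.63 and 0 CPM in ILC2. The part of Fos or of handling in the level of Cd69 was not tested in any class.

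**Figure D2:**
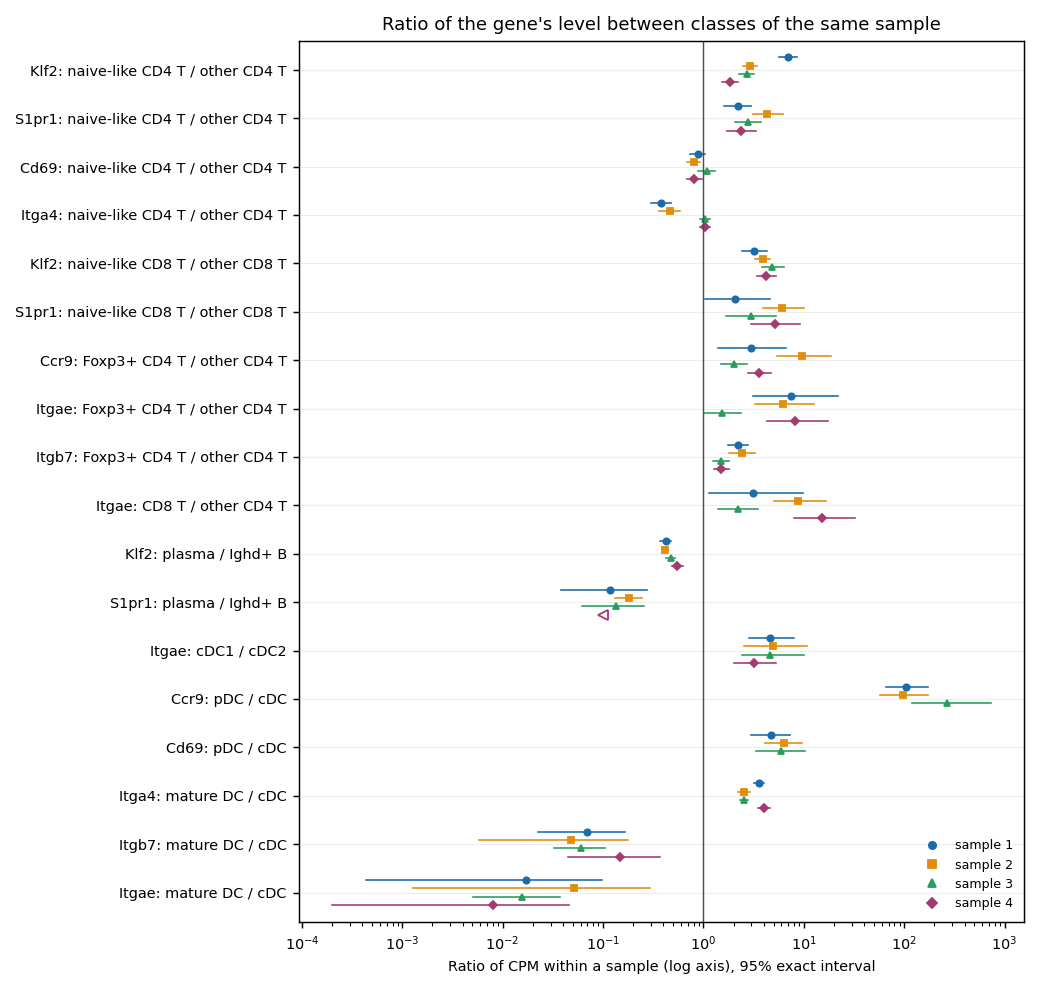
Ratio of CPM between 2 classes of the same sample (log axis, 95% exact interval), 1 point per sample. The open triangle is an upper limit where no UMI was found, and the line at 1 marks equal levels. Klf2 and S1pr1 lie above 1 in naive-like T cells of every sample, whereas Cd69 lies on both sides of it.

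Whether the genes occurred in the same cells was read in αβ T cells thinned to 3000 UMIs, which left 292, 434, 435 and 419 cells. Of cells with an S1pr1 UMI, 69.6%, 79.1%, 56.5% and 48.5% had a Klf2 UMI, against 48.0%, 45.5%, 29.8% and 33.1% of cells without. The joint count was 1.27, 1.51, 1.66 and 1.37 times the product of the single shares. For Cd69 the same factor was 1.07, 0.963, 1.03 and 0.958, on both sides of 1.

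Itgae and S1pr1 occurred together less often than the product in samples 1 to 3, at 0.732, 0.482 and 0.191 of it, and at 1.01 of it in sample 4. The joint counts were 3, 9, 1 and 8 cells. Within Foxp3-positive CD4 T cells the factor for Itgae and S1pr1 was 1.67, 1.17, 0.954 and 1.36, from 3, 1, 2 and 4 joint cells. It was 0, 0, 0 and 0.505 in CD8 T cells that were not naive-like, with 1 joint cell in sample 4. In the other Foxp3-negative CD4 T cells it was 0, 1.63, 0 and 0, with 1 joint cell in sample 2. Naive-like CD4 T cells had 1.48, 0 and 0 in samples 2 to 4. Itga4 was found in 26.1%, 37.4%, 56.5% and 73.5% of cells with S1pr1 and in 39.5%, 53.6%, 73.0% and 77.8% of cells without. In Ighd-positive B cells Klf2 and S1pr1 came at 1.02, 0.996, 0.894 and 1.01 of the product, where most cells had Klf2. The αβ T cells pool naive-like and other cells, and naive-like cells held more Klf2 and S1pr1 than the others. Within naive-like CD4 T cells the factor for Klf2 and S1pr1 was 1.06, 1.12, 1.45 and 1.37. It ran from 1.02 to 1.93 in the other Foxp3-negative CD4 T cells and from 1.20 to 2.30 in CD8 T cells that were not naive-like. In Foxp3-positive CD4 T cells it was 1.63, 0.863, 1.07 and 1.42. Within classes the factor for Itga4 and S1pr1 was below 1 in each sample in naive-like CD4 T cells, at 0.482, 0.893, 0.699 and 0.894, and in the other CD4 T cells. It was 1.60, 1.04, 1.19 and 1.02 in CD8 T cells that were not naive-like, from 3 to 8 cells with S1pr1 per sample, and 1.46, 1.32, 0.996 and 0.895 in Foxp3-positive CD4 T cells.

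**Figure D3:**
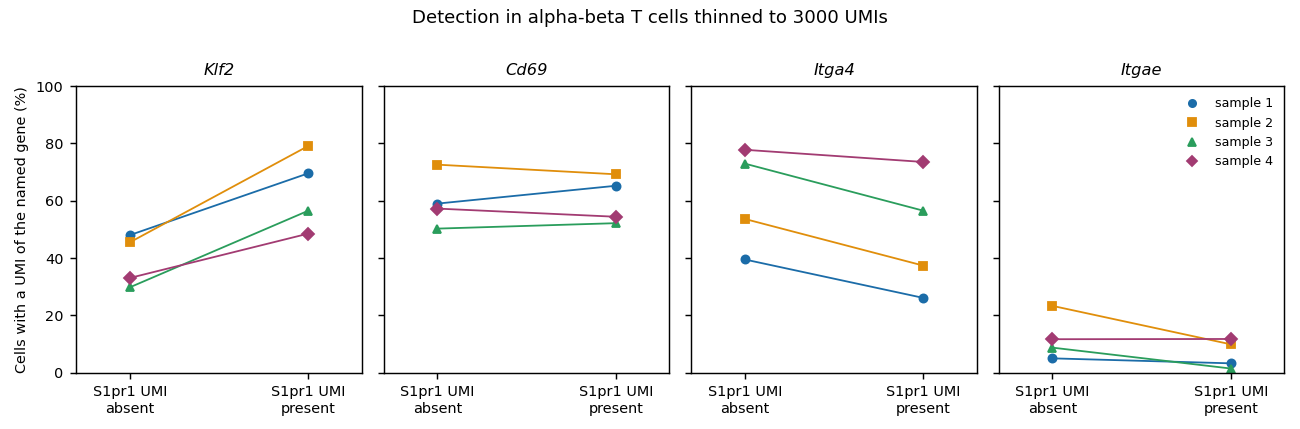
Share of αβ T cells, thinned to 3000 UMIs, with a UMI of the gene named above each panel, in cells without and with an S1pr1 UMI (1 line per sample). Over the pooled αβ T cells, Klf2 was found more often in cells with S1pr1 in each sample, and Itga4 less often.

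Few non-leukocyte cells came through the bead selection, and they show where the ligands lie. Endothelial cells numbered 23, 12, 59 and 39 in samples 1 to 4. Madcam1, the vessel ligand of α4β7, was at 391, 541, 53.0 and 149 CPM in them and at most 0.317 CPM in fibroblasts and 0 in epithelial cells. Vcam1, a second ligand of α4 integrins, was at 345 to 667 CPM in endothelial cells and 751 to 1145 CPM in fibroblasts.

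Cdh1, which encodes E-cadherin, was at 941, 1208, 1620 and 1408 CPM in 18, 43, 17 and 41 epithelial cells. The gene 2610528A11Rik, which encodes a ligand of GPR15, was at 242, 500, 559 and 1045 CPM in these cells, although almost no Gpr15 was found in lymphocytes. Ccl28, the ligand of CCR10, was at 19.5, 50.2, 43.0 and 54.7 CPM in epithelial cells. Ccl25, the ligand of CCR9, was low in all 3 cell types, at 22.2 CPM at most. S1pr1 was itself high in endothelial cells, at 469, 313, 505 and 488 CPM, and Spns2, the exporter of sphingosine-1-phosphate, was at 101 to 168 CPM there.

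**Figure D4:**
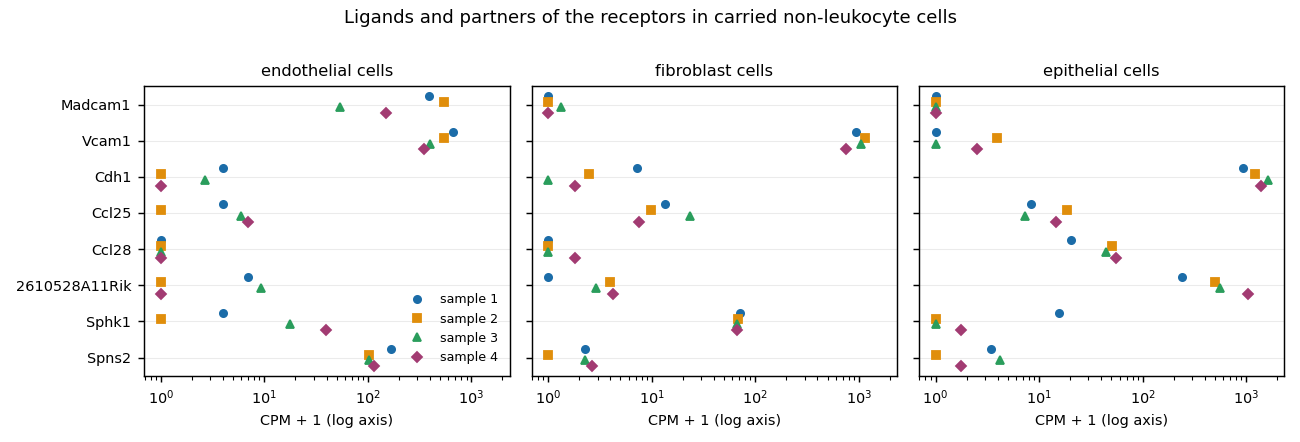
Level (CPM + 1, log axis) of ligands and partners of the receptors in endothelial, fibroblast and epithelial cells that came through the selection, 1 point per sample. Madcam1 and Spns2 lie in endothelial cells, and Cdh1, Ccl28 and 2610528A11Rik in epithelial cells.

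Of the 38 other genes on the lists of lymph node homing, egress, residency, other integrins, other trafficking receptors and retinoic acid genes, 26 reached the minimum of 20 CPM for naive-like against other CD4 T cells, of which 2 were higher and 1 was lower, where 0.524% of all genes were called. For CD8 T cells it was 25, with 3 higher and 3 lower, beside 0.932% of all genes. Between plasma cells and Ighd-positive B cells 21 were tested, with 1 higher, the plasma cell gate gene Prdm1, and 11 lower, beside 32.5% of all genes. Most of all genes called there were lower in plasma cells too, with 1557 lower and 279 higher. Foxp3-positive against other CD4 T cells had 27 tested, 3 higher and 1 lower, beside 1.9% of all genes, and mature against conventional DCs 21 tested, 1 higher, the gate gene Ccr7, and 5 lower, beside 17.0% of all genes.

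Likeness was read over 29 points, each a class in a sample with at least 50 cells, from 11 classes, by Pearson's r of log2(CPM + 1). The points share libraries and cell types, so r is a description. Itga4 was most like Itgb1 (0.869), the β1 chain that also pairs with α4. The nearest gene to Itgb7 was Rnf125 (0.902), to S1pr1 Pgpep1l (0.901), to Klf2 Stt3b (0.861), to Cd69 Sept6 (0.859), to Itgae Lzts1 (0.795) and to Ccr10 Pycr1 (0.935). Ccr9 was most like Kifc1 (0.846), but pDCs, with under 50 cells in every sample, were not among the points. Gpr15 peaked at 2.77 CPM over these points, and its likeness was not read.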

How the data were processed

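Unnormalized UMI counts for every gene in every cell were deposited by the authors for 4 CD45+ lamina propria samples. The submitters' processing notes name Cell Ranger 5.0.0, STAR, Seurat and mm10, and the matrix header names Cell Ranger 7.0.1. Gene positions come from GENCODE on GRCm38, and promoters from RefSeq on GRCm38.p6, where 5 of 9 members had an entry.

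Samples held 72509408 to 135516016 UMIs. Cells needed at least 200 genes and under 20% mitochondrial UMIs. A cell was gated on markers: T cells by at least 3 UMIs of T cell receptor and CD3 genes, B cells by at least 3 of B cell receptor complex and B cell surface genes, with at most 1 UMI of the other lineage and at most 2 of macrophage genes. Excluding mixed cells was the treatment of doublets, and Scrublet in scanpy 1.11.5 served as an alternative. Between 78 and 120 cells per sample shared a barcode with another sample.

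Counts were summed per class and scaled to CPM. Ratios have exact conditional intervals. Since the labels give no genotype, no groups were formed, none were tested against each other and no p-value is given. Dixon's ratio was used to find single samples far from the others. A gene was called in a comparison at 2-fold or more the same way in each sample read. Some markers and list genes are not reported here. Genes named are the members, their ligands, pathway lists and the 3 genes most like each member. The members and lists were chosen with earlier results of these data known, and gates were loosened once on markers alone. Fos, Jun, Dusp1 and Hspa1a were added after the values were seen. The alternatives varied the filters, doublets, gates, denominator, depth, barcodes and samples.

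Simulated cells were drawn from the summed profiles of the gated classes, and of those that were gated 95.2% fell in their own class. For simulated Foxp3-positive against other CD4 T cells, 199 of 200 genes changed 4-fold were called, with 0 of the unchanged genes. The simulated samples shared the same profiles and differed in depth alone. These values therefore check the calculation and do not give the error rate in the real samples, which vary. Tools were numpy 2.4.6, scipy 1.17.1, pandas 2.3.3, igraph 0.11.9, leidenalg 0.10.2, matplotlib 3.10.9 and Python 3.11.15.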

Additional observations from a re-analysis of the deposited data

Results flagged for a closer look

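In 96 sets of values from the 4 samples, either a ratio or a level with at least 20 UMIs over the samples, 7 had 1 sample far from the other 3 by Dixon's ratio, or 7.29% of them, and chance gives about 1 in 20. Itgae in naive-like CD8 T cells was at 119 CPM in sample 2, against 24.5 to 40.1 CPM in the others. Itgae in cDC2 was at 152 CPM in sample 4, against 28.8 to 49.7 CPM. Ccr9 in γδ T cells was at 48.4 CPM in sample 2, against 4.52 to 9.39 CPM. Ccr9 in ILC2 was at 24.1 CPM in sample 4, against 5.44 to 8.57 CPM. S1pr1 in the other CD4 T cells was at 89.1 CPM in sample 1, against 58.7 to 62.6 CPM. Cd69 was low in sample 3 in naive-like CD8 T cells, at 294 CPM against 650 to 698 CPM, and in NK cells with ILC1, at 378 CPM against 532 to 562 CPM.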

How the results depend on the processing

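The 12 ratios of the design gave 136 values under alternatives, and 128 stayed within 1 SD of the samples' log2 ratios or, with 1 ratio, within its interval. This rule is loose where the samples spread widely. For Ccr10 in plasma cells the SD was 3.09, and 531 counted as unmoved from 256. For Itgae in CD8 T cells the SD was 1.295, and 3.12 and 8.81 counted as unmoved from 5.97. None of the 136 values reversed a direction that all samples had shared. With defining markers at 2 UMIs or more, Itgae in cDC1 against cDC2 moved from 4.66 to 11.3, over 3 samples. Without immunoglobulin, mitochondrial and haemoglobin UMIs in the total, plasma cells against Ighd-positive B cells moved from 1.12 to 1.74 for Itga4 and from 1.43 to 2.17 for Itgb7. Thinning cells to 1000 UMIs gave 0.928 for Itga4 there and 0.672 (0.0804 to 2.49) in place of 0.223 for S1pr1 in germinal-centre-like B cells. Leaving out 1 sample at a time, the median ratio of Ccr9 in pDCs ran from 101 to 186, the latter without sample 2, and that of Ccr10 in plasma cells, with empty classes at the floor, from 23.6 without sample 1 or sample 2 to 488. The median for Klf2 in naive-like CD4 T cells ran from 2.69 to 2.88. Each ratio compared classes of the same sample, and no test over the samples was run. Groups of samples could not be compared because the labels give none. Small classes limit the precision of a value: pDCs had 10 to 20 cells in the samples read and cDC1 15 to 48.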
